A study of Mus musculus with 2 samples.

Results

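The 36 genes described here are 25 immediate early genes, from Fos to Gadd45g, and 11 heat shock genes, from Hspa1a to Bag3. They were chosen by name, and all 36 are listed in both tables of the series, which hold 17641 genes for the normal library and 15644 for the tumor library. The normal library (NECs) is 1 droplet library of CD45-/CD31+ cells sorted from pooled normal mammary glands, labelled as C57BL/6 mice of 6 to 8 weeks. The tumor library (TECs) is 1 droplet library of CD45-/CD31+ cells sorted from pooled E0771 tumors, a mouse mammary cancer line grown in the mammary gland; its labels give no strain or age. Both share 1 written protocol, in which minced tissue was digested with collagenase, DNase and a further protease for 60 min at 37 °C before staining and sorting. No undissociated sample was analysed here, so a gene's level in the tissue and its response to digestion and sorting cannot be told apart. Some labels of the normal library name tumor cells, while its title and the design text give normal glands, and it was read as normal.

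The questions were whether the immediate early and the heat shock genes were high in the same cells, in which kinds of vessel, and in which library. Immediate early genes are transcribed within minutes of a stimulus without new protein synthesis, through factors that are already present, such as SRF, CREB and NF-kappaB. They encode AP-1 subunits (the Fos and Jun families), other transcription factors such as EGR1, and proteins that end the response, such as the phosphatase DUSP1 and the mRNA decay factor ZFP36. Heat shock genes are switched on by HSF1 when proteins misfold, and encode chaperones that refold or hold them, although members such as Hspa8 are also made at rest. In endothelial cells (ECs) both programs respond to shear stress, cytokines, heat and enzymatic digestion.

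Cells were kept with at least 200 genes, under 10% mitochondrial unique molecular identifiers (UMIs, 1 per captured transcript), no UMI of Ptprc, Myh11, Epcam or Cspg4, and at least 1 UMI of Cdh5 or Pecam1. Tumor cells also had to hold more UMIs of Cdh5 and Pecam1 than of Rhox5, Hmga2 and Krt8, which mark the cancer cells. This left 4940 of 9047 NEC barcodes (median 2976 UMIs, 17327221 in all) and 261 of 704 TEC barcodes (median 16989 UMIs, 4646103 in all). The 10 endothelial markers were detected in both libraries. Their summed level was 9470 CPM (UMIs per 1000000 UMIs of the kept cells) in NECs and 7323 CPM in TECs. For Cdh5 and Pecam1 among them, detection follows from the filter, which did not use Kdr, Cldn5 and the others. Salivary gland transcripts were present in NECs, with 8 of 10 markers at a summed 2107 CPM, and at 0 in TECs. The libraries shared 3 barcodes, none kept in both. With 1 library per condition no test was possible, so a difference is given as a ratio with a 95% interval that covers counting error only, and a gene is counted as different when its CPM differs 2-fold or more.

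The immediate early genes together were lower in TECs. Their summed level was 19746 CPM in NECs, or 1.97% of all UMIs, and 5448 CPM in TECs, a log2 ratio of -1.86 (-1.88 to -1.84). Of the 25, 20 were at least 2-fold lower in TECs and 0 at least 2-fold higher, where 19.7% of all 8827 genes that passed the minimum level were lower and 11% higher. The median log2 ratio was -2.06 over the immediate early genes and -0.12 over all genes tested.

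The AP-1 subunits and Atf3 as a sum had a log2 ratio of -1.82, and 6 of 7 were at least 2-fold lower in TECs. Fos, which pairs with Jun proteins to form AP-1, was at 2171 CPM in NECs and 472 CPM in TECs, a log2 ratio of -2.20 (-2.26 to -2.14). Junb, the Jun family member often paired with induced Fos, was at 2219 and 486 CPM (log2 ratio -2.19). Jun, the founding member of its family, was at 1740 and 515 CPM (log2 ratio -1.76). These 3 genes thus differed between 3.38-fold and 4.60-fold. Fosb was at 628 and 157 CPM, Jund, the family member most present at rest, at 1441 and 588 CPM, and Atf3, a stress-induced ATF/CREB factor, at 591 and 223 CPM. Fosl2, the Fos family member also called Fra-2, was the exception, at 180 CPM in NECs and 96.4 CPM in TECs, 1.86-fold lower.

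The other early transcription regulators had a summed log2 ratio of -2.30, and 6 of 7 were at least 2-fold lower in TECs. Egr1, a zinc finger factor and classic target of SRF, was at 1222 CPM in NECs and 141 CPM in TECs, 8.67-fold lower. Nr4a1 and Nr4a2, which encode orphan nuclear receptors, were at 251 and 115 CPM in NECs and at 40.9 and 4.09 CPM in TECs. Egr2 was low in both, with 261 UMIs in 201 NECs and 1 UMI in 1 TEC, a log2 ratio of -6.13 with a wide interval (-11.44 to -3.64). Ier2 and Ier5, small nuclear regulators, were at 726 and 333 CPM in NECs and at 174 and 151 CPM in TECs. Myc, a driver of growth and division, went the other way at a low level, with 23.0 CPM in NECs and 33.6 CPM in TECs, which is short of 2-fold.

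The genes of feedback and growth arrest had a summed log2 ratio of -2.09, with 8 of 9 past 2-fold. Gadd45b, which feeds stress signals to MAP kinases, was at 231 CPM in NECs and 13.1 CPM in TECs, 17.6-fold lower. Ier3, an NF-kappaB target that regulates survival, was at 1808 and 235 CPM, 7.70-fold lower. Zfp36, which binds AU-rich mRNAs and speeds their decay, was at 1325 and 183 CPM, 7.25-fold lower. The spread in this group was therefore wide. Its smallest difference was that of Dusp1, the MAP kinase phosphatase, at 457 CPM in NECs and 305 CPM in TECs (log2 ratio -0.58). Socs3, the brake on JAK/STAT signalling, was at 723 and 127 CPM, and Nfkbia, which encodes the NF-kappaB inhibitor, at 1366 and 530 CPM. Btg2, an antiproliferative gene, was at 880 and 175 CPM, Zfp36l1 at 505 and 153 CPM, and Gadd45g at 359 and 73.8 CPM.

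The genes of cell shape and matrix did not follow. Rhob, a small GTPase of the cytoskeleton and endosomes, was at 229 CPM in NECs and 288 CPM in TECs (log2 ratio 0.33, 0.24 to 0.42). Cyr61, a secreted matrix protein and target of YAP and SRF, was at 208 and 286 CPM (log2 ratio 0.46, 0.36 to 0.55). Neither was past 2-fold.

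The heat shock genes as a sum were nearly level, at 6323 CPM in NECs and 5523 CPM in TECs, a log2 ratio of -0.20 (-0.21 to -0.18). When cells with more cancer than endothelial UMIs were kept among TECs, the sign turned (log2 ratio 0.02), and without Hspa8, the largest part of the sum, the ratio was -0.74. Of the 11 genes, 1 was at least 2-fold higher in TECs and 2 at least 2-fold lower. These counts lie near the shares over all genes tested, 11% higher and 19.7% lower. Hspe1, the mitochondrial co-chaperonin, was at 185 CPM in NECs and 431 CPM in TECs (log2 ratio 1.22, 1.14 to 1.30). Its partner Hspd1, which forms the mitochondrial chaperonin with it, was at 117 and 203 CPM (log2 ratio 0.80). Hspa8, the HSP70 made at rest, was at 2080 and 2976 CPM (log2 ratio 0.52). These chaperones were higher in TECs, whereas Hspb1 and Dnajb1 were lower. Hspb1, a small chaperone that binds unfolded proteins and actin, was at 1913 CPM in NECs and 410 CPM in TECs (log2 ratio -2.22, -2.29 to -2.16). Dnajb1, the HSP40 partner of inducible HSP70, was at 139 and 47.8 CPM (log2 ratio -1.54).

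The inducible HSP70 genes themselves differed little between the libraries. Hspa1a was at 316 CPM in NECs and 250 CPM in TECs (log2 ratio -0.33), and Hspa1b at 72.3 and 67.2 CPM (log2 ratio -0.11, -0.29 to 0.07). To compare cells at 1 depth, 1900 UMIs were drawn at random from each of the 3831 NECs and 239 TECs that held as many. In these cells Hspa1a was found in 20.4% of NECs (19.1 to 21.7) and 15.1% of TECs (10.8 to 20.2), with intervals that overlap. Without thinning these shares were 25.5% and 33.7%, and no cell type that lacks the gene was at hand to give the share expected from free RNA. Hsp90aa1, a cytosolic HSP90 counted here among the chaperones present at rest, was at 587 and 554 CPM, and Hsph1, a nucleotide exchange factor of HSP70, at 32.4 and 51.9 CPM. Dnaja1, an HSP40, was at 799 and 488 CPM, and Bag3, a co-chaperone of HSP70 in selective autophagy, at 82.8 and 43.7 CPM, both short of 2-fold.

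**Figure D1:**
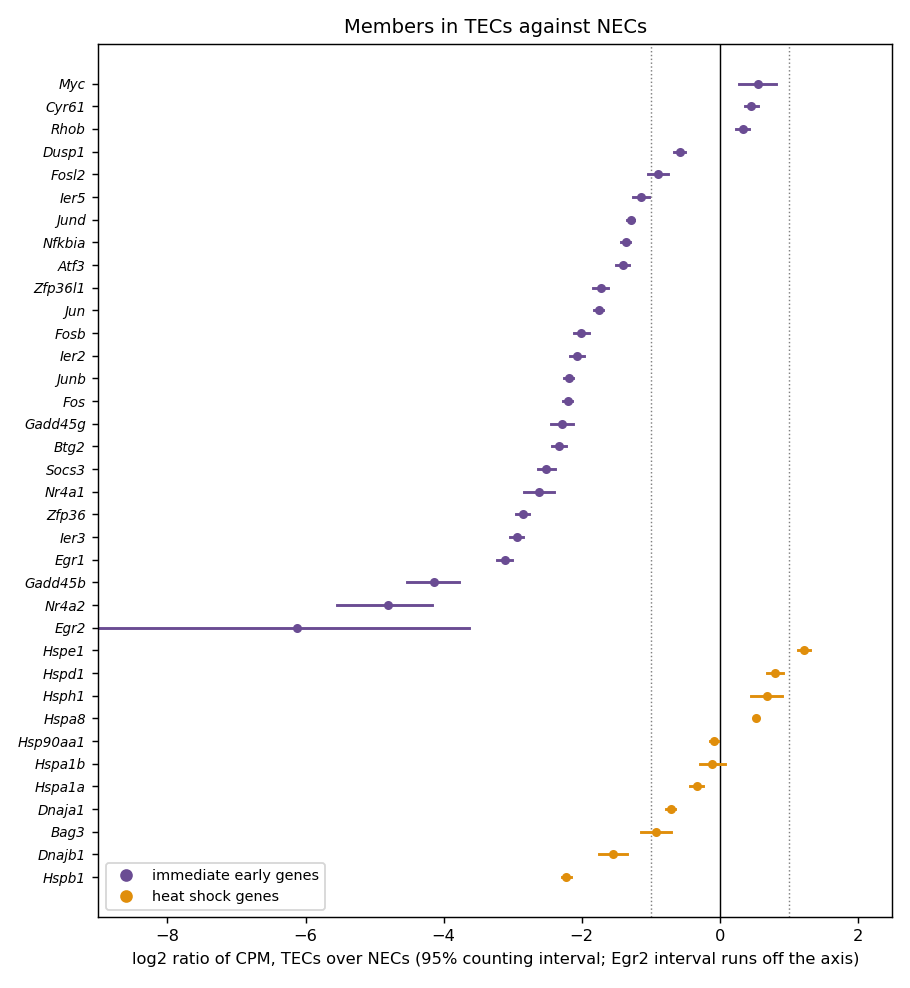
Log2 ratio of CPM in TECs over NECs for each of the 36 genes (points) with 95% counting intervals (bars), immediate early genes in purple and heat shock genes in orange, and dotted lines at 2-fold. Of the immediate early genes, 20 lie left of the 2-fold line and 0 right of the other, and of the heat shock genes only Hspe1 lies right of it, at 1.22.

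The promoters of both groups were searched for short motifs of the factors named above. RefSeq windows of GRCm38.p6, from 250 bases before to 50 after each gene's start, were available for 22 of the 25 immediate early genes and 9 of the 11 heat shock genes. The search covered both strands for the heat shock element core to which HSF1 binds (GAANNTTC or TTCNNGAA, either counted as a match, which overlap in tandem elements), for the CArG box of SRF, and for the full cAMP response element (TGACGTCA). The heat shock core was found in 8 of 9 heat shock genes (Dnajb1 had none), in 4 of 22 immediate early genes (Jun, Fosl2, Egr2 and Cyr61), and in 17.0% of all 27025 genes with a window. The CArG box was found in Zfp36 and Egr2 (1.81% of all genes), and the full cAMP response element in Btg2 and Dusp1 (2.03% of all genes). A match describes these letters only, and the window may miss elements farther away.

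Hspa1a and Hspa1b encode near-identical proteins, and their promoters show how alike the gene pair is. The stretches below run from 150 bases before the start, at chr17:34972157-34972306 and chr17:34959239-34959388, both on the minus strand, with the heat shock core in capitals. They differ at 1 of 150 bases. These bases lie before the start and do not bear on the reads. How reads shared by both genes were assigned was not examined here, so the split of UMIs between them is uncertain.
Hspa1a: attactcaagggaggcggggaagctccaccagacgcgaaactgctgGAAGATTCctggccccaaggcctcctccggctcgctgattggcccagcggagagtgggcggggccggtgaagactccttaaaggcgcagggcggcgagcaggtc
Hspa1b: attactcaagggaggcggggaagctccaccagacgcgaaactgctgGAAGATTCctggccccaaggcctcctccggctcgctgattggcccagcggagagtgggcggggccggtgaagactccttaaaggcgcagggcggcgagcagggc

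Stretches of 30 bases around the core are given for the other heat shock genes whose windows hold it. They are at chr5:135887791-135887820 (plus strand) for Hspb1, chr4:40722333-40722362 (plus) for Dnaja1, chr7:128523603-128523632 (plus, after the start) for Bag3, chr5:149636351-149636380 (minus) for Hsph1, chr1:55088048-55088077 (plus) for Hspe1 and chr1:55088058-55088087 (minus) for Hspd1. Hspe1 and Hspd1 lie head to head and share 1 run of 3 overlapping cores, read from opposite strands.
Hspb1: cttcaacaagaGAAGTTTCcagatgggggc
Dnaja1: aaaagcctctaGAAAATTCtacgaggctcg
Bag3: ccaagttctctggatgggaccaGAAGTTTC
Hsph1: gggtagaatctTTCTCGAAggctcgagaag
Hspe1: gccacggtccgTTCTAGAACCTTCCGGAAg
Hspd1: cgcgcggggccTTCCGGAAGGTTCTAGAAc

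Of the immediate early genes, Jun is shown with its heat shock core (chr4:95052332-95052361), Zfp36 with its CArG box (chr7:28379267-28379296), and Btg2 (chr1:134079303-134079332) and Dusp1 (chr17:26508597-26508626) with their cAMP response elements, all 4 on the minus strand and with the match in capitals. Jun is shown because its rho with Hspa1a among single cells was the highest (below), by a narrow margin over Jund and Fos. The windows of Jund and Fos hold no heat shock core, and whether the core of Jun bears on its levels was not tested.
Jun: ggcccagagaaGAATCTTCtagggtgaggt
Zfp36: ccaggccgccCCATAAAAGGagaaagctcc
Btg2: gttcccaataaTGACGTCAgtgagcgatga
Dusp1: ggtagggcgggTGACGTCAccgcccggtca

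Genes outside the 36 were followed in 3 lists. Of 34 other immediate early genes, 32 were at a testable level, and 22 were at least 2-fold lower and 1 at least 2-fold higher in TECs. Over all 8827 genes tested, 19.7% were lower and 11% higher by this measure, which also applies to the lists below. Klf4, an endothelial zinc finger factor, was at 810 CPM in NECs and 114 CPM in TECs, and Irf1, an interferon and NF-kappaB target, at 609 and 130 CPM. Klf2, the shear stress factor, was at 1523 and 680 CPM. Of 28 testable cytosolic and mitochondrial chaperones, 3 were higher and 2 lower, and of 17 genes of the endoplasmic reticulum, 3 were higher and 2 lower. Calr and Pdia6, which fold glycoproteins and form disulfide bonds in that compartment, were at 505 and 291 CPM in NECs and at 1033 and 630 CPM in TECs. The lower level in TECs was thus shared by most of the immediate early list and by few chaperones.

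Across single NECs the immediate early genes were split into high and low cells, and in TECs most cells were low. At 1900 UMIs per cell, the median NEC held 16 UMIs of the 25 genes, the lower quartile was 5, the upper quartile 66 and the highest cell 229. The median TEC held 7, with quartiles of 3 and 15 and a highest cell of 66. The cells were cut into 3 ranges, at limits set after the distribution had been seen: 0 to 14 (low), 15 to 39 (middle) and 40 or more (high). Of NECs, 1889 (49.3%) were low, 421 middle and 1521 (39.7%, 38.1 to 41.3) high. Of TECs, 174 (72.8%) were low, 55 (23.0%) middle and 10 (4.18%, 2.02 to 7.56) high. A range is a stretch of a continuous value and not a cell type, and 242 NECs lay at 10 to 14, 113 at 15 to 19, 94 at 35 to 39 and 88 at 40 to 44.

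**Figure D2:**
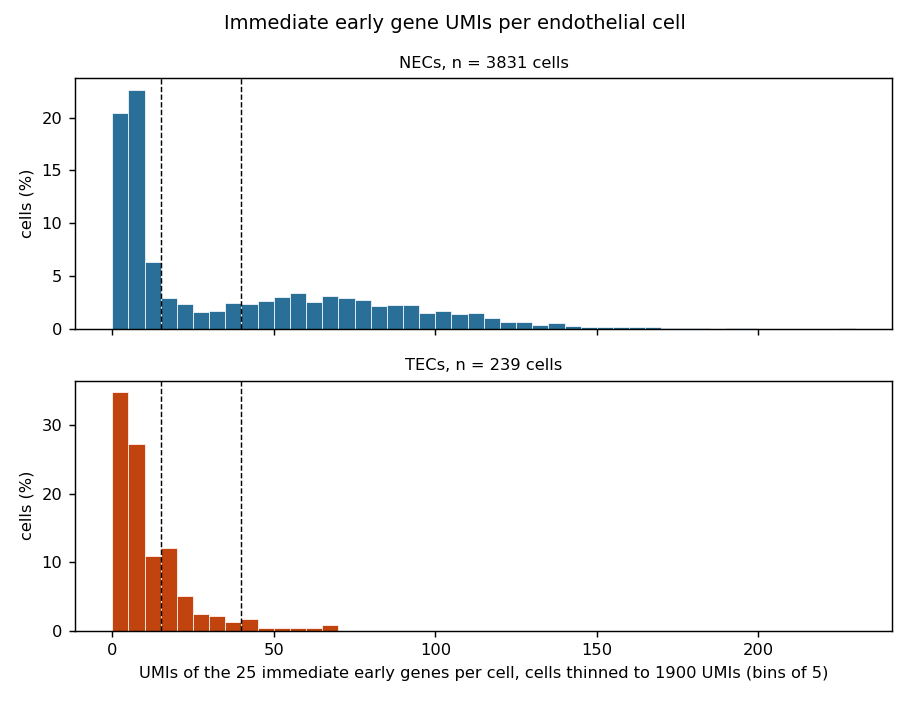
Share of cells (%) by the number of UMIs of the 25 immediate early genes per cell, in bins of 5, after thinning to 1900 UMIs, for 3831 NECs (top) and 239 TECs (bottom), with dashed lines at 15 and 40. NECs spread in a second broad hump above 40, which holds 39.7% of them, while 4.18% of TECs lie there.

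The heat shock genes, which did not enter the ranges, were higher in NECs of the high range. Their summed level was 4365 CPM in the low, 6046 CPM in the middle and 8679 CPM in the high range, a log2 ratio of high over low of 0.99 (0.97 to 1.01), against -0.19 for the median of all 8659 genes tested. Of the 11, 5 were at least 2-fold higher in the high range and 0 at least 2-fold lower, where 5.20% of all genes were higher and 3.92% lower. Hspa1a was at 45.3 CPM in the low, 389 CPM in the middle and 571 CPM in the high range, 12.6-fold higher in high than in low cells. Dnajb1, its co-chaperone, was at 27.3, 90.2 and 283 CPM, 10.4-fold higher. Hspa1b was at 15.4, 120 and 103 CPM. Hspa1a and Dnajb1 were thus higher in each range than in the one below it, whereas Hspa1b was not higher in high than in middle cells.

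The remaining chaperones differed less or not at all. Hsp90aa1 was at 334 CPM in the low, 551 CPM in the middle and 892 CPM in the high range, and Bag3 at 46.7, 76.3 and 126 CPM, both past 2-fold. Hspa8 was at 1450, 1990 and 2880 CPM (1.99-fold), Dnaja1 at 557, 724 and 1089 CPM (1.95-fold), and Hspb1 at 1534, 1741 and 2420 CPM (1.58-fold). Hspe1 was at 204, 212 and 165 CPM, Hspd1 at 119, 127 and 115 CPM, and Hsph1 at 31.8, 26.1 and 35.4 CPM. Hspd1 and Hsph1 had intervals of the high over low ratio that included 0 on the log2 scale (-0.19 to 0.09 and -0.12 to 0.42), and Hspe1 was lower in the high range (log2 ratio -0.31, -0.42 to -0.20). Hspe1, Hspd1 and Hsph1 therefore stood apart from Hspa1a and Dnajb1. The windows of the first 3 each hold at least 1 heat shock core and that of Dnajb1 holds none. Whether the cores bear on these levels was not tested.

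**Figure D3:**
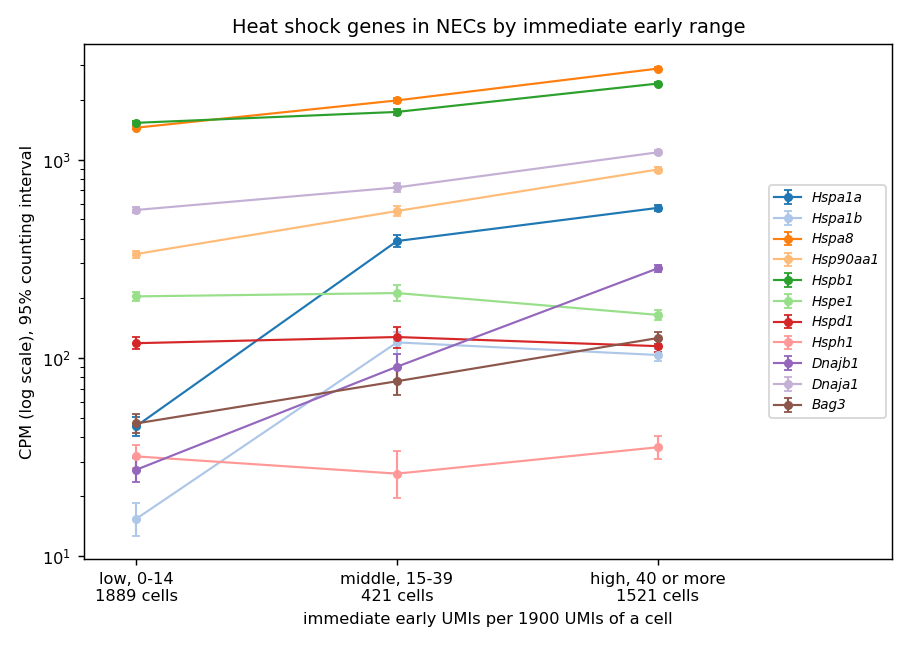
Level (CPM, log scale) of each of the 11 heat shock genes in NECs of the low, middle and high immediate early range, with 95% counting intervals as bars. Hspa1a goes from 45.3 to 571 CPM and Dnajb1 from 27.3 to 283 CPM, while the lines of Hspe1, Hspd1 and Hsph1 stay nearly flat.

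The immediate early genes set the ranges, so their levels across them are a description only. The 24 of 25 that were at least 2-fold higher in high than in low NECs ran from Zfp36l1, at 310 and 689 CPM, to Ier3, at 90.9 and 4038 CPM. Atf3 was at 33.4 and 1302 CPM, Fos at 129 and 4704 CPM, and Zfp36 at 80.5 and 2912 CPM. Rhob, at 167 and 298 CPM, was the member short of 2-fold. Of the other immediate early genes, which the ranges did not use, 26 of 33 were at least 2-fold higher in the high range, with Irf1 at 140 CPM in low and 1189 CPM in high cells and Mcl1, a survival gene, at 213 and 989 CPM. Id3, an inhibitor of basic helix-loop-helix factors, was lower, at 1505 CPM in low and 917 CPM in high cells. Of the other cytosolic and mitochondrial chaperones, 3 of 27 were higher, where 5.20% of all 8659 genes were.

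In TECs the middle and high cells were joined, since only 10 were high. Of the heat shock genes, 3 of 11 were at least 2-fold higher there than in low TECs, where 2.63% of 8129 genes were. Hspa1a was at 127 CPM in low and 604 CPM in middle or high TECs, a log2 ratio of 2.25 (2.07 to 2.42). Hspa1b was at 38.8 and 148 CPM (log2 ratio 1.93), and Hspb1 at 303 and 707 CPM (log2 ratio 1.22). Dnajb1 was at 41.7 and 64.6 CPM (log2 ratio 0.63), short of 2-fold, and Hspa8 at 2877 and 3286 CPM (log2 ratio 0.19). Hspd1 was lower, at 224 and 143 CPM (log2 ratio -0.65, -0.90 to -0.41). The inducible HSP70 genes thus differed in both libraries. Dnajb1 and Hsp90aa1 were past 2-fold in high over low NECs. In TECs, where Hsp90aa1 was at 546 and 586 CPM, neither was. The ranges compared are unlike, since most of the joined TECs were middle cells. In middle over low NECs Dnajb1 was past 2-fold and Hsp90aa1 was not. Whether these differences are themselves unequal was not tested.

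Cell by cell, the sums of the 2 groups were related in both libraries. Spearman's rho between the immediate early and the heat shock sum was 0.54 over 3831 NECs and 0.29 over 239 TECs, at equal depth. With ranks centred on each cluster it was 0.30 in NECs and 0.31 in TECs. The cells of each value share 1 library, so these are descriptions without a test. Within the immediate early genes the ties were closer in NECs than in TECs. The rho was 0.81 in NECs and 0.37 in TECs between AP-1 and the other early regulators. Between AP-1 and the feedback genes it was 0.80 and 0.67. At equal depth TECs held fewer immediate early UMIs, with a median of 7 against 16 in NECs. The part of this in the lower rho values of TECs was not tested. The AP-1 sum was related to the inducible chaperones at 0.36 and to those present at rest at 0.47 in NECs, and at 0.27 and 0.23 in TECs. In NECs, Hspb1 held 33147 of the 44277 UMIs of the inducible sum, and Hspa8 36035 of the 65280 of the other. These values therefore follow mainly Hspb1 and Hspa8 and do not rank inducible against resting chaperones.

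Single genes were compared with the immediate early sum, each without its own UMIs. In NECs, 22 of 23 testable immediate early genes (at least 100 CPM) and 6 of 8 heat shock genes had a rho above 0.2, against 6.87% of 1673 genes. Junb led with 0.84, followed by Zfp36 with 0.81, and Egr1 and Fos with 0.74 each. Myc, below the minimum level, was at 0.08 and Rhob at 0.17. Of the heat shock genes, Hspa8 was at 0.42, Hspa1a at 0.39, and Dnajb1 and Hsp90aa1 at 0.34 each, while Hspd1 was at -0.01 and Hspe1 at -0.08. Hspa1b, a sparse gene, was at 0.21.

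In TECs, 15 of 18 testable immediate early genes and 2 of 7 heat shock genes had a rho above 0.2 with the immediate early sum, against 3.35% of 1640 genes. Jun led with 0.62, then Fos with 0.60, Junb with 0.57 and Atf3 with 0.55. Hspa1a was at 0.39, the same as in NECs to 2 decimals, and Hspa8 at 0.21. Among the pairs of Hspa1a with single immediate early genes (Egr2 gave no value in TECs), Jun had the highest rho in both libraries, by a narrow margin. It was 0.3789 in NECs, where Jund was at 0.3702, and 0.4225 in TECs, where Fos was at 0.4151. With the heat shock sum, 19 of 23 immediate early genes had a rho above 0.2 in NECs, against 4.42% of genes, and 5 of 18 in TECs, against 0.915%.

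**Figure D4:**
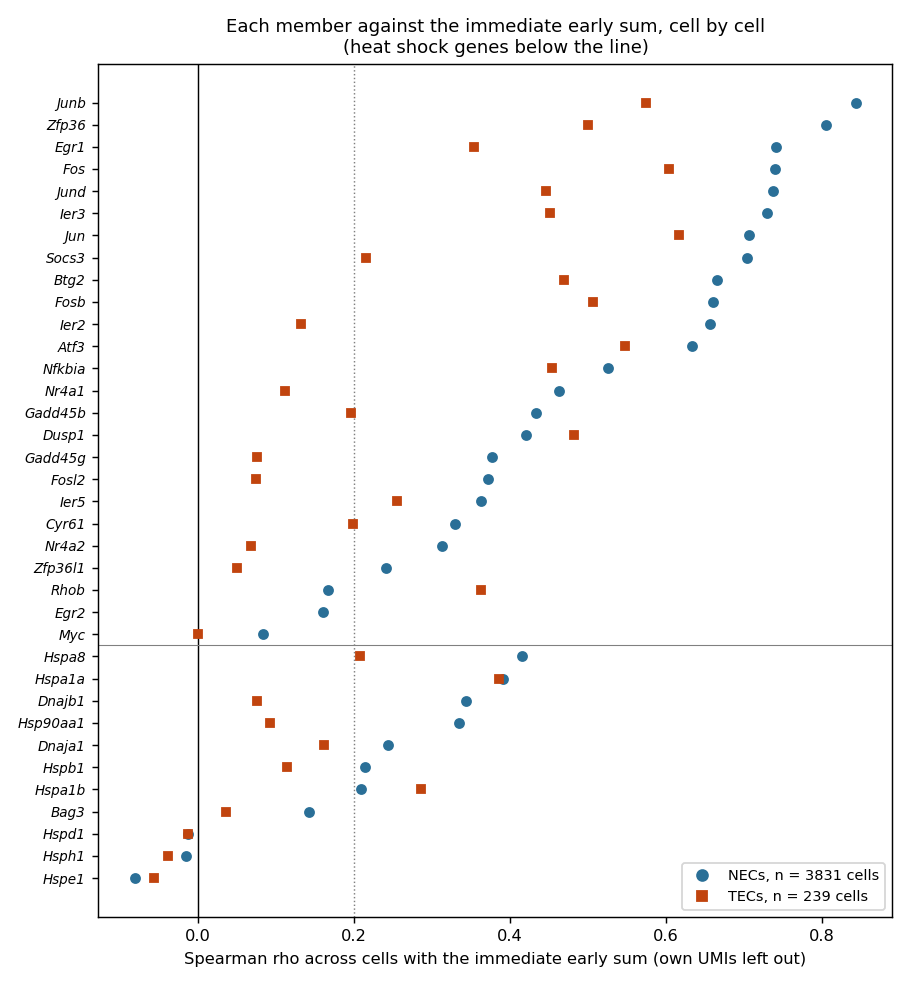
Spearman's rho across cells between each gene and the immediate early sum without that gene, in 3831 NECs (circles) and 239 TECs (squares), with heat shock genes below the line and a dotted line at 0.2. Junb (0.84) leads in NECs and Jun (0.62) in TECs, and Hspa1a lies at 0.39 in both.

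The genes outside the lists that were most like the immediate early sum in NECs, by rho over the same cells, were Cdkn1a (0.61), H3f3b (0.51), Apold1, Sbno2 and Nfkbiz (each 0.49). Cdkn1a, which encodes the cell cycle inhibitor p21, was at 116 CPM in low and 1445 CPM in high NECs. Apold1, an endothelial early response gene, was at 37.0 and 689 CPM, and Nfkbiz, a nuclear IkappaB protein, at 23.6 and 534 CPM. The immediate early sum also set the ranges, so these levels are a description only. Cdkn1a (0.42) and H3f3b (0.35) were also most like the heat shock sum. In TECs the leading gene was Malat1 (0.37), a nuclear noncoding RNA. With the TEC heat shock sum the highest rho was that of Rpl27a (0.24), too low to read as a pattern.

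By vessel type, cells with high immediate early levels formed clusters of their own beside low counterparts. Each library was clustered alone on variable genes from which the 36 members and the lists had been left out, giving 16 clusters of NECs and 4 of TECs. Other genes that followed the immediate early sum, such as Cdkn1a and Apold1, were not left out. The clusters are therefore not independent of the immediate early levels. Clusters were named from marker genes. The names were capillary-like (clusters 0, 1 and 6), arterial-like (4), venous-like (5), HEV-like (13, for high endothelial venules), mitotic-like (14) and salivary-like (11), and 8 NEC clusters stayed unnamed. A name also needed a marker among the cluster's 10 leading genes, from which the members were not removed. Members could thus take places there, and whether this cost a cluster its name was not tested. Of the 15 NEC clusters with 30 or more cells at equal depth, 8 (2836 cells) had most of their cells in the low range and 6 (1518 cells) in the high range. The immediate early sum ran from 4556 CPM in cluster 7 to 44374 CPM in cluster 6, and the heat shock sum from 3242 CPM in cluster 12 to 10740 CPM in cluster 6. Cluster 6 was capillary-like by Car8, Timp4, Tcf15 and Aqp1, and Atf3, Hspa1a and Egr1 also stood among its 10 leading genes.

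Clusters of the high range were set beside the low cluster with the closest profile, by the correlation r over 1600 genes without the members. Cluster 6 was closest to capillary-like cluster 0 (r = 0.71), with 44374 against 4819 CPM of immediate early genes and 10740 against 5333 CPM of heat shock genes. Cluster 9, with 11 raised arterial genes such as Sox17 and Sema3g, was closest to arterial-like cluster 4 (r = 0.72), with 34655 against 9132 CPM and 8652 against 4308 CPM. Cluster 10, with 6 raised capillary genes such as Car4 and Gpihbp1, was closest to capillary-like cluster 1 (r = 0.68), with 37369 against 6595 CPM and 9146 against 5077 CPM. Clusters 8 and 7, both with Penk and Pacsin1 among their 10 leading genes, were alike (r = 0.84), with 38443 against 4556 CPM and 9275 against 5250 CPM. Profiles with arterial and with capillary genes thus each occurred in a high and a low form, and the heat shock sum was higher in the high form each time, by 0.82 to 1.01 on the log2 scale. Cluster 2, with 10 raised interferon genes, was at 41324 and 7793 CPM, and cluster 15 at 26730 and 6763 CPM. Neither had a close counterpart among the low clusters (r of 0.40 and 0.21). Cluster 15 had 7 pericyte, 5 smooth muscle and 3 fibroblast genes raised, which are not endothelial markers. It was still counted among the high NEC clusters below. Cluster 3, with 163 low, 91 middle and 103 high cells, was not a low cluster and was not compared.

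**Figure D5:**
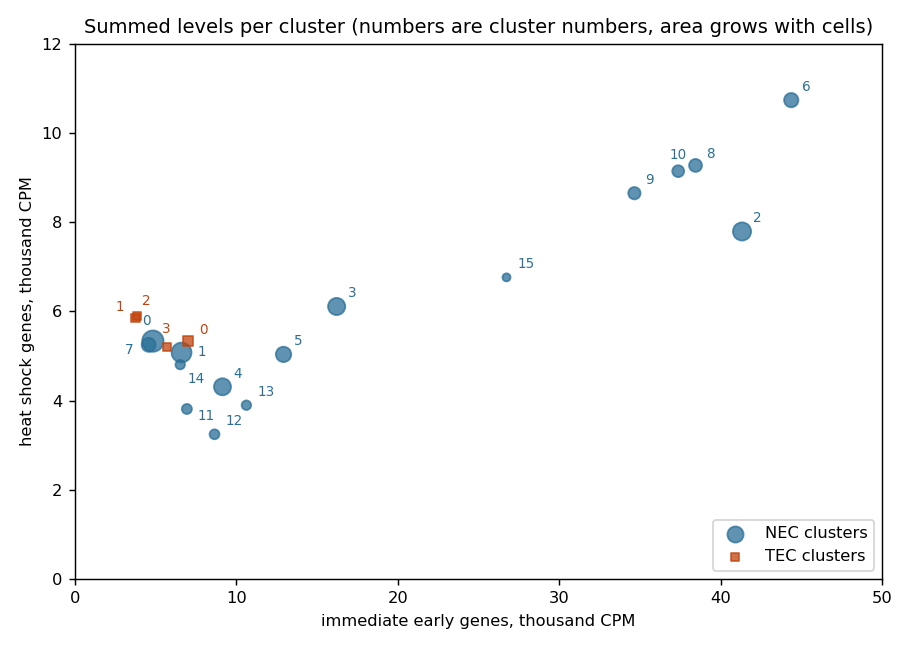
Summed CPM (axes in units of 1000 CPM) of the immediate early genes (horizontal) and heat shock genes (vertical) for the 16 NEC clusters (circles) and 4 TEC clusters (squares), numbered, with area growing with the number of cells. Clusters 2, 6, 8, 9 and 10 lie at the right with immediate early sums from 34655 to 44374 CPM, and the TEC clusters all lie at the left, at or below 6993 CPM.

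The levels of single genes in all 6 high clusters were above those in all 8 low clusters for 6 of the 11 heat shock genes, against 2.24% of 8267 genes, and for 17 of the 25 immediate early genes, which set the ranges. The 6 were Hspa1a, Hspa8, Hsp90aa1, Dnajb1, Dnaja1 and Bag3. Dnajb1 was at 31.4 to 92.5 CPM in low and 196 to 412 CPM in high clusters. Hspa1a was at 19.9 to 241 CPM in low and 262 to 1139 CPM in high clusters, a narrow gap. The highest cluster differed among the members. Hspa1a, Fosb, Jun and Egr1 peaked in capillary-like cluster 6, Fos and Dnajb1 in cluster 8, Atf3 and Nr4a2 in cluster 9 with its arterial genes, and Ier3 in cluster 2, at 7726 CPM against 145 to 1191 CPM in low clusters.

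Named vessel classes as a whole had less of the immediate early genes than the other NECs, and 5 of the 6 high clusters carried no name. Arterial-like cells were at 9132 CPM against 20666 CPM in the others (log2 ratio -1.18), but with cluster 9 joined to them the ratio was -0.08. Venous-like cells were at 12915 CPM (log2 ratio -0.67) and capillary-like cells at 12635 CPM (log2 ratio -0.80). The capillary-like ratio was -2.03 at cluster resolution 0.4, -2.14 with 10 principal components, and -0.42 when clusters were named without the condition on the 10 leading genes. For the heat shock genes the ratios were -0.59 in arterial-like cells (-0.10 with cluster 9 joined), -0.36 in venous-like and -0.03 in capillary-like cells. The order of vessel classes therefore depended on which clusters carried a name.

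Within clusters the heat shock genes were again higher in the cells of the high range. In each of the 7 NEC clusters with at least 10 cells in both ranges, the heat shock sum was higher in high cells, by 0.74 to 1.24 on the log2 scale. Capillary-like cluster 0 had 18 high and 437 low cells, with 1433 against 36.6 CPM of Hspa1a and 280 against 30.3 CPM of Dnajb1. Arterial-like cluster 4 had 39 high and 282 low cells, with 1078 against 69.8 CPM of Hspa1a and 151 against 21.8 CPM of Dnajb1. Venous-like cluster 5 had 74 high and 231 low cells and differed in one respect. Its Dnajb1 was at 226 against 19.8 CPM (log2 ratio 3.51), while its Hspa1a was at 54.1 against 30.7 CPM (log2 ratio 0.82, 0.02 to 1.61), where the other 6 clusters had log2 ratios of Hspa1a from 1.93 to 5.43. HEV-like cluster 13 had 484 against 19.4 CPM of Hspa1a. Hspe1 was higher in 4 of the 7 clusters, with every interval including 0. Within single NEC clusters the rho of the sums ran from 0.02 in mitotic-like cluster 14 (85 cells) to 0.57 in cluster 15 (43 cells). Cluster 15 is the cluster with raised pericyte genes. The rho was 0.42 in venous-like, 0.25 in arterial-like, and 0.22, 0.17 and 0.34 in capillary-like clusters 0, 1 and 6.

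TEC clusters differed less. The immediate early sum was 6993 CPM in IFN-like cluster 0 (98 cells with 14 raised interferon genes), 5702 CPM in tip-like cluster 3 (49 cells, with Esm1, Apln and Angpt2), 3839 CPM in mitotic-like cluster 2 (55 cells) and 3737 CPM in unnamed cluster 1 (59 cells with a median of 2219 UMIs). The heat shock sums of the same clusters lay within a narrow range, at 5337, 5196, 5896 and 5851 CPM. In mitotic-like TECs, 0 of 55 cells were in the high range, which allows a share of up to 6.49% (exact binomial). Hspa1a was at 83.1 CPM in mitotic-like TECs and at 299 to 414 CPM in the other clusters, whereas Hspd1, Hspe1 and Hspa8 had their highest TEC level in the mitotic-like cluster. Within IFN-like TECs the 2 sums had a rho of 0.53, against 0.12 to 0.22 in the other TEC clusters. Hspa1a was at 617 against 184 CPM in middle or high against low IFN-like TECs, and at 689 against 173 CPM in tip-like TECs.

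Against low NECs alone, the sums in TECs were not lower. The immediate early sum was 2985 CPM in NECs of the low range and 5448 CPM in all TECs, a log2 ratio of 0.87, and the heat shock sum 4365 and 5523 CPM, a ratio of 0.34. Since low NECs were chosen by this sum and TECs were not, the direction follows in part from the choice and is a description only. The order of genes was uneven. Atf3 (33.4 and 223 CPM), Cyr61 (44.7 and 286 CPM) and Hspa1a (45.3 and 250 CPM) were over 5-fold higher in TECs, Btg2 (174 and 175 CPM) and Ier5 (152 and 151 CPM) were level. Hspb1 (1534 and 410 CPM), Nr4a2 (11.6 and 4.09 CPM), Gadd45b (28.8 and 13.1 CPM) and Zfp36l1 (310 and 153 CPM) were over 2-fold lower in TECs also here, as was Egr2 with its 1 TEC UMI.

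Other measures moved with the ranges, and their part in these results was not tested. The median share of mitochondrial UMIs was 4.33% in low, 3.31% in middle and 2.72% in high NECs, with a rho of -0.41 to the immediate early sum. In TECs it was 3.73%, 3.08% and 2.82%. Median depth before thinning was 3142, 3876 and 3784 UMIs in NECs, and 17633, 21321 and 5588 UMIs in TECs, where the 10 high cells were shallow. All 20 interferon list genes were detected in each NEC range, at a summed 3030 CPM in low, 4128 CPM in middle and 5608 CPM in high NECs. The 6 HEV genes were at 11086, 14991 and 945 CPM, and the 16 capillary genes at 34801, 25952 and 23209 CPM, with Mfsd2a at 0 in the middle range. The 7 pericyte genes were at 101, 248 and 162 CPM, the 9 immune genes at 68.7, 173 and 40.3 CPM (Cd3e at 0 in low and high cells), and the 10 endothelial genes at 9708, 8828 and 9101 CPM. Salivary genes were at 2439, 1219 and 1617 CPM. Between the libraries, the interferon list was at 4223 CPM in NECs and 10221 CPM in TECs.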

How the data were processed

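The authors used Cell Ranger and the mm10 genome, per the labels, and deposited raw UMI counts of each gene in each barcode. Seurat is also named there, and the Cell Ranger version is not given in the sources used here. The 36 genes and all gene lists were chosen with earlier results of these data known. Cells were filtered as the report states. Scrublet (scanpy 1.11.5) called 0 cells as doublets in either library, so the caller did not work and no cell was removed. A gene was compared when it had at least 20 UMIs over both groups and 10 CPM in 1 of them. CPM is the gene's UMIs over all UMIs of the kept cells. Sums have exact Poisson intervals, ratios exact conditional binomial intervals and shares exact binomial (Clopper-Pearson) intervals, all at 95%, for counting error only. For values per cell, 1900 UMIs were drawn from each cell, which left out 1109 NECs and 22 TECs. Clusters were made in Seurat 5.3.0 (R 4.3.3; 4000 variable genes less those of the members and lists, 20 principal components, 20 neighbors, resolution 0.8). A cluster took a name from at least 3 marker genes of 1 list raised 2-fold, with 1 of them among its 10 leading genes. The members were not removed from the leading genes. The ratio and rho were tested on simulated data. Named genes were the 36 members, up to 6 genes with the most UMIs from each list, and the 10 genes outside them with the highest rho with each sum. Python 3.11.15, numpy 2.4.6, scipy 1.17.1, pandas 2.3.3 and matplotlib 3.10.9 were used. Alternatives covered the cell filters, doublet scores, depth, scale, single genes, clustering and naming.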

Additional observations from a re-analysis of the deposited data

Results flagged for a closer look

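Some barcodes outside the kept ECs also held many UMIs of these genes. In the normal library, 567 barcodes were removed for a UMI of Myh11 or Cspg4, genes of smooth muscle cells and pericytes. Their immediate early sum was 23223 CPM, above the 19746 CPM of the kept NECs, and 59.7% of the 533 with at least 1900 UMIs lay in the high range (55.4 to 63.9). The 1233 barcodes removed for a UMI of Epcam, an epithelial gene, had an immediate early sum of 13534 CPM, and 24.6% of those with 1900 UMIs lay in the high range. In the tumor library, the 183 barcodes with more UMIs of Rhox5, Hmga2 and Krt8 than of Cdh5 and Pecam1 had a heat shock sum of 7594 CPM, above the 5523 CPM of the kept TECs, and an immediate early sum of 6602 CPM. Of the 169 with at least 1900 UMIs, 0 lay in the high range, which allows a share of up to 2.16%. These barcodes were set apart by their marker UMIs and enter only the alternatives in which that filter was lifted.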

How the results depend on the processing

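The main limits are 1 library per condition, few deep TECs in the high range, and sums led by a few genes. No paired analysis was possible because each condition has 1 library. Of 149 ratios and correlations recomputed, 142 kept their sign and 7 did not. Only 56 stayed within the counting interval of the reported ratio or within 0.05 of the reported rho. Another 86 moved beyond these limits with the sign kept, some of them close to 0. The cause of the shifts was not tested. All values below are log2 ratios unless a rho is named.

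For TECs over NECs, the immediate early ratio (-1.86 as reported) was -2.05 with under 5% mitochondrial UMIs, -1.78 with cells holding Ptprc, Myh11, Epcam or Cspg4 kept, -1.82 without the top 5% of Scrublet scores, -1.71 without the rule on cancer genes, -1.66 as a mean over cells, -1.77 thinned and -1.82 without Junb. The heat shock ratio (-0.20) was -0.27 with under 5% mitochondrial UMIs, -0.059 with those cells kept, 0.023 without the rule on cancer genes, -0.27 thinned and -0.74 without Hspa8. Without the cancer rule, 4 members in place of 1 were at least 2-fold higher. Chosen after seeing the data, leaving out NEC clusters 11, 13 and 15 gave -1.89 and -0.22, and leaving out TEC cluster 1 gave -1.84 for the immediate early genes.

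The correlation of the sums in NECs (rho of 0.54) was 0.48 at 1000 UMIs (4688 cells), 0.60 at 4000 UMIs (1405 cells), 0.46 without Junb and Hspa8, and 0.30 with ranks centred on each cluster. That in TECs (rho of 0.29) was 0.20, 0.19 and 0.21 under the first 3 of these, 0.31 with ranks centred on each cluster, and 0.24 with at least 2 UMIs of Cdh5 and Pecam1.

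For immediate early and heat shock genes in that order, arterial-like over other NECs (-1.18 and -0.59) gave -0.085 and -0.10 at resolution 0.4, -0.037 and -0.089 with 10 components, -1.22 (immediate early) with 30, -1.70 and -0.69 with members and lists among the variable genes, -1.23 and -0.63 as a mean over cells, -1.30 and -0.63 thinned, and -1.13 without Junb. Venous-like (-0.67 and -0.36) gave -0.74 and -0.50, -0.83 and -0.50, -0.75 and -0.49, -0.78 and -0.46, -0.84 and -0.45, -0.94 and -0.46, and -0.63 under the same settings in the same order. Capillary-like (-0.80 and -0.03) gave -2.03 and -0.39, -2.14 and -0.37, -0.89 (immediate early), -0.96 and -0.10, -0.78 and 0.0021, -0.84 and -0.0076, and -0.77, and its heat shock ratio without Hspa8 was 0.048. Naming clusters without the condition on the 10 leading genes, added after seeing the data, gave -0.082 and -0.10 for arterial-like, -0.79 and -0.49 for venous-like, and -0.42 and 0.073 for capillary-like cells.

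Among TECs, tip-like (0.09 and -0.11) gave 0.029 and -0.17 at resolution 1.2, 0.014 (immediate early) with members and lists among the variable genes, 0.32 as a mean over cells, 0.30 and -0.069 thinned, and 0.0069 for heat shock genes without Hspa8. Mitotic-like (-0.72 and 0.15) gave -0.59 and 0.20 at resolution 0.4, -0.40 and 0.19 at 1.2, -0.46 with 10 components, -0.65 and 0.19 with 30, -0.61 as a mean over cells, -0.61 thinned, and -0.064 for heat shock genes without Hspa8. IFN-like (0.63 and -0.08) gave 0.16 and 0.0029 at resolution 1.2, -0.20 for heat shock genes at 0.4, 0.55 with 30 components, 0.34 and -0.15 as a mean over cells, 0.32 and -0.19 thinned, and -0.018 for heat shock genes without Hspa8. No cluster took the tip-like name at resolution 0.4 or with 10 components, nor the IFN-like name with 10 components or with members and lists kept, so these were not run. Small heat shock ratios between classes were therefore not firm in sign.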

Other observations

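Some genes outside the lists also went with the high range in NECs. Rnd1 and Bhlhe40 were picked by their rho with the immediate early sum, which also set the ranges. Sertad1 was picked by its rho with the heat shock sum. Their levels by range are therefore a description only. Rnd1, a GTPase that loosens the cytoskeleton, was at 27.1 CPM in low and 583 CPM in high NECs, Bhlhe40, a stress and clock repressor, at 41.0 and 478 CPM, and Sertad1 at 49.3 and 336 CPM. Genes of the endoplasmic reticulum divided. Atf4, the factor of the integrated stress response, was at 153 CPM in low and 611 CPM in high NECs, and Hspa5, the HSP70 of that compartment, at 475 and 983 CPM. Hsp90b1 was at 618 and 512 CPM and Pdia6 at 329 and 261 CPM, so these other folding factors were not higher with Hspa5.

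At the other end, the lowest rho with the immediate early sum in NECs belonged to mitochondrial transcripts, led by mt-Atp6 (-0.38), and to Tmsb4x (-0.37), Egfl7 (-0.35) and Txnip (-0.29). Of the 50 genes with the lowest rho in NECs, 11 were mitochondrially encoded, and 0 of 50 in TECs. Egfl7, an endothelial matrix factor, was at 2092 CPM in low and 1155 CPM in high NECs, and Txnip, which responds to glucose and binds thioredoxin, at 1107 and 524 CPM. Both were picked by their rho with the sum that set the ranges, so these levels are a description only. In TECs the lowest rho was that of Rplp1 (-0.29), which encodes a ribosomal protein. Klf2 had a rho of 0.51 with the immediate early sum in TECs and 0.35 in NECs, and was at 883 CPM in low and 2345 CPM in high NECs.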
